A study of Mus musculus with 3 samples.

Results

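The poly(ADP-ribose) polymerase (PARP) genes *Parp1*, *Parp2*, *Parp3*, *Parp8*, *Parp9*, *Parp10*, *Parp11*, *Parp12* and *Parp14*, together with *Dtx3l*, whose product partners with that of *Parp9*, were followed in LPS-stimulated RAW macrophages. The genes were found by their symbols among the gene probes of the microarrays, and all 10 were present, with 23 probes, of 26840 genes with a symbol and 46056 probes. The RAW line stems from macrophages of the mouse, and the study asked how a preceding contact with lactobacilli alters its response to LPS, a bacterial lipopolysaccharide that acts through TLR4. One group received LPS alone, another was exposed to *L. rhamnosus* CRL1505 before LPS (CRL1505 + LPS), and the last to *L. plantarum* CRL1506 before LPS (CRL1506 + LPS). The lactobacilli were present for 24 h at 50000000 cells/mL and were washed off before LPS was added at 50 ng/mL, so LPS was common to all groups. The duration of LPS is given as 12 h in the series design and as 3 h in the sample descriptions. Arrays of cells without LPS were not analysed here, so no value below is a response to LPS itself. With 1 array per condition there are no replicates, and every ratio is a value without a test or p-value.

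PARP enzymes take NAD+ and attach its ADP-ribose group to proteins and nucleic acids. The enzymes encoded by *Parp1*, *Parp2* and *Parp3* are switched on by breaks in DNA, and those of *Parp1* and *Parp2* build long chains of ADP-ribose that gather repair factors. Most other family members add single ADP-ribose units, and several of them, such as those of *Parp9*, *Parp10*, *Parp12* and *Parp14*, are known as interferon-stimulated genes with roles in antiviral defence and in macrophage activation. The proteins of *Parp9* and *Parp14* carry macrodomains, folds that bind ADP-ribose, and DTX3L is a ubiquitin ligase that forms a complex with PARP9.

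The sequences that report these transcripts are 60-base probes. Those of the 3 DNA-dependent genes are shown whole because *Parp1* stood apart from the other genes in direction after CRL1505.
Parp1 probe A_51_P314277: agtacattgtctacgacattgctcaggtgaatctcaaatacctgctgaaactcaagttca
Parp2 probe A_52_P227445: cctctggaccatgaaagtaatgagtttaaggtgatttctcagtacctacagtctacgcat
Parp3 probe A_52_P480425: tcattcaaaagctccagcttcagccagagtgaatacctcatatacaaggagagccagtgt
The *Parp1* probe lies on chromosome 1 between 182530341 and 182530639 (mm9, plus strand) per the file headers, a span of 299 bases, and the *Parp2* probe on chromosome 14 between 51439134 and 51439365, a span of 232 bases, so both cross a gap in the genome alignment. The *Parp3* probe lies without a gap on chromosome 9 between 106373597 and 106373656. *Parp10* had a pair of probes that overlap, and the bases they share, 20 in number, are in capitals below (the last 30 bases of the brighter probe and the first 30 of the dimmer one).
Parp10 probe A_55_P2130970: ctgtctttgaATAAACCTGTACTTGAAACC
Parp10 probe A_55_P2006983: ATAAACCTGTACTTGAAACCagttagaagg
For *Parp12* and *Parp14*, the first 30 bases of each probe are shown because their probes gave unequal ratios, as described with the values.
Parp12 probe A_51_P214747: tgacttataatgatgttagtattgtatttt
Parp12 probe A_55_P2721414: gtggtcacaggaacagctcgtgtatttgaa
Parp14 probe A_51_P514712: tgactagccaaccaatgttacagacacttt
Parp14 probe A_52_P97680: ttcggcagaacgttctggagagagggaatc

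Promoter windows of 300 bases, from 250 before to 50 after a gene start, were taken from RefSeq on GRCm38.p6 and were found for 7 of the 10 genes, in 8 windows. They were searched on both strands for the core of the interferon-stimulated response element (GAAA, any 2 bases, GAAA), the core of the gamma-activated site (TTC, any 3 bases, GAA) and an NF-kappaB core (GGGA, any 2 bases, TTCC). Over all 32851 windows, 3.4% held the first core, 8.3% the second and 1.5% the third. *Parp9*, *Parp10* and *Parp14* had no window and were not searched. Among the 7 genes with a window, only *Parp11* held any of these letters. *Parp11* was the gene with 2 windows, and only 1 of them, that of the upstream start, held matches. Its interferon-stimulated response element core, on the opposite strand, and its gamma-activated site core overlapped. Both are in capitals in the 150 bases before that gene start. The same stretch of *Parp4*, a family gene outside the 10, is shown because it held a pair of overlapping interferon-stimulated response element cores. That of *Parp12*, the gene with the highest ratio after CRL1505, held none in its window and is shown for contrast.
Parp11, chr6:127446690-127446839, plus strand: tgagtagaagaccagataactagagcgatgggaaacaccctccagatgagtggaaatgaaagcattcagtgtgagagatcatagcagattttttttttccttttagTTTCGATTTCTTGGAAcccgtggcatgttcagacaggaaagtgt
Parp4, chr14:56575469-56575618, plus strand: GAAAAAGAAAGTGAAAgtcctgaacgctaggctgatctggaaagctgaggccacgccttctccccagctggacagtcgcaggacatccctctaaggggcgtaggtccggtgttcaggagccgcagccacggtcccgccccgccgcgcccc
Parp12, chr6:39118350-39118499, minus strand: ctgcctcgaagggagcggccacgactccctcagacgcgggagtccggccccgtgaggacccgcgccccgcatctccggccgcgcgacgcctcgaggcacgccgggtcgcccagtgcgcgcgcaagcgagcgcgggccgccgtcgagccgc
The windows hold only these bases of each gene, and a match is a likeness of letters. G and C made up 79.3% of the *Parp12* stretch, 63.3% of that of *Parp4* and 41.3% of that of *Parp11*.

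Signals were background-subtracted intensities, and a level is the log2 signal minus the 75th percentile of the gene spots on the same array. That percentile was a signal of 743.1 with LPS alone, 517.0 after CRL1505 and 697.9 after CRL1506. Between 48.5% and 55.3% of gene spots were well above background, and no gene spot was saturated. A single slide and scan run held the arrays for LPS and CRL1506 + LPS, whereas that for CRL1505 + LPS came from a different slide, so slide and strain cannot be told apart. Each gene was represented by its brightest probe without an outlier spot, and all 10 such probes were well above background on the 3 arrays. Different probes of a gene differed with a median SD of 0.228 in the log2 ratio of CRL1505 + LPS to LPS, 0.215 in that of CRL1506 + LPS to LPS and 0.323 between the strains. The 8 macrophage markers were well above background on each array, with a summed signal of 571 to 712 times the 75th percentile. They did not all hold their level, since *Adgre1* was 4.83-fold above LPS after CRL1505 and just past 2-fold after CRL1506, and *Csf1r* had log2 ratios to LPS of -1.47 and -0.87, while the other 6 lay under 2-fold with both strains. The summed signal of 5 T and B cell markers was 1.18 to 1.43, and *Cd3e* and *Ms4a1* among them were well above background on all 3 arrays, with log2 ratios to LPS of -0.16 and -0.38 after CRL1505 and 0.04 and 0.47 after CRL1506. That of 7 epithelial and fibroblast markers was 0.226 to 0.321, with *Krt5*, *Krt8*, *Cdh1*, *Col3a1* and *Pdgfra* not well above background on any array. *Col1a2* was above background with both strains but not with LPS alone (at least 3.50-fold and 1.33-fold higher), and *Col1a1* with CRL1506 + LPS alone (at least 3.60-fold higher than LPS). The part of these markers in the values of the PARP genes was not tested. In such bulk RNA, fewer cells that use a gene and less of its RNA per cell cannot be told apart.

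After CRL1505, 6 of the 10 genes were at least 2-fold higher than with LPS alone, namely *Parp9*, *Parp10*, *Parp11*, *Parp12*, *Parp14* and *Dtx3l*. Over all 15603 genes compared, 9.93% were at least 2-fold higher. *Parp1* was the 1 gene at least 2-fold lower, against 8.41% of all genes. The median log2 ratio of the 10 genes was 1.26, with 9 genes above 0 and 1 below, and that of all genes was 0.06. After CRL1506, none of the 10 genes was at least 2-fold higher, against 5.67% of 16279 genes, and none was at least 2-fold lower, against 3.53%. Their median log2 ratio was 0.19, with 6 genes above 0 and 4 below, and that of all genes was -0.06. Between the strains, 6 of the 10 genes were at least 2-fold higher with CRL1505 than with CRL1506, against 9.02% of 15780 genes, and 0 were at least 2-fold lower, against 7.47%. These 6 were *Parp8*, *Parp9*, *Parp11*, *Parp12*, *Parp14* and *Dtx3l*. The 3 comparisons use the same 3 arrays, so none of them is independent of the others.

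**Figure D1:**
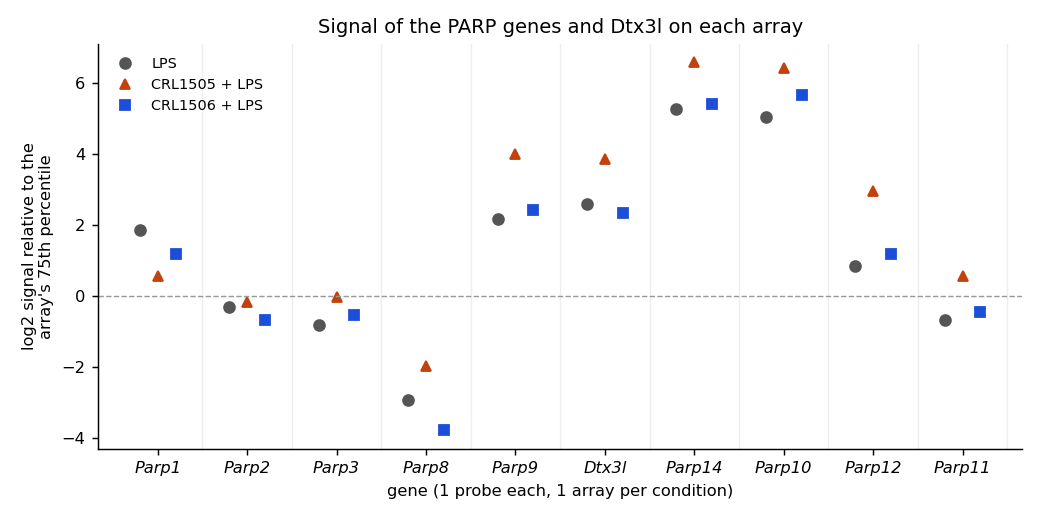
Level of each gene on each array, as log2 signal relative to the array's 75th percentile, with 1 probe per gene and 1 array per condition. For every gene but *Parp1* the CRL1505 + LPS level is the highest of the 3, and for *Parp1* it is the lowest. Levels of different genes are not comparable because probes differ.

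The DNA-dependent genes did not move together. *Parp1*, which encodes the most abundant DNA-break sensor of the family, had a signal of 2694 with LPS, 758 with CRL1505 + LPS and 1593 with CRL1506 + LPS, and levels of 1.86, 0.55 and 1.19 on the log2 scale. Its level was highest with LPS alone and lowest after CRL1505. The difference from LPS was 2.47-fold lower for CRL1505 (log2 ratio -1.31) and 1.59-fold lower for CRL1506 (log2 ratio -0.67). Of the genes measured on both arrays, 3.50% had a lower ratio than *Parp1* after CRL1505 and 5.92% after CRL1506. The CRL1505 value was 1.56-fold below the CRL1506 value (log2 ratio -0.64), under the 2-fold threshold. *Parp1* had a single probe, so its ratios could not be compared between probes.

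*Parp2*, which encodes the other chain-building enzyme of DNA repair, had levels of -0.32 with LPS, -0.17 with CRL1505 + LPS and -0.69 with CRL1506 + LPS. Its log2 ratios to LPS were 0.15 for CRL1505, within the spread between probes, and -0.37 for CRL1506. Both *Parp2* probes gave like values, 0.15 and 0.29 for CRL1505 and -0.37 and -0.30 for CRL1506. *Parp3*, whose product acts in the joining of broken DNA ends, had levels of -0.83, -0.03 and -0.53 on the LPS, CRL1505 + LPS and CRL1506 + LPS arrays. It was 1.75-fold higher than LPS after CRL1505 and 1.23-fold higher after CRL1506, and thus lay under 2-fold with both strains.

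*Parp9*, *Dtx3l* and *Parp14* lie beside each other on chromosome 16. In RefSeq, no protein-coding gene starts between *Parp14* and *Dtx3l*, and *Dtx3l* and *Parp9* overlap. *Parp9*, which encodes the macrodomain partner of DTX3L, had a signal of 3332 with LPS, 8298 with CRL1505 + LPS and 3769 with CRL1506 + LPS. The CRL1505 + LPS array thus stood above the others, which were close to each other. After scaling, *Parp9* was 3.58-fold higher than LPS after CRL1505 (log2 ratio 1.84) and 1.20-fold higher after CRL1506 (log2 ratio 0.27). After CRL1505, 98.1% of the genes measured on both arrays had a lower ratio than *Parp9*. *Dtx3l*, the ubiquitin ligase gene, had signals of 4460, 7535 and 3507, and levels of 2.59, 3.87 and 2.33. It was 2.43-fold higher than LPS after CRL1505 (log2 ratio 1.28) and 1.19-fold lower after CRL1506 (log2 ratio -0.26). *Parp9* and *Dtx3l* therefore had the same direction after CRL1505 and opposite signs after CRL1506, where both ratios were small.

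*Parp14*, whose product binds ADP-ribose through macrodomains and is known as a cofactor of STAT6, had signals of 28600 with LPS, 49925 with CRL1505 + LPS and 29815 with CRL1506 + LPS. Its levels were 5.27, 6.59 and 5.42. The LPS and CRL1506 + LPS levels differed by 0.15, within the spread between probes, and the CRL1505 + LPS level was 2.51-fold above LPS (log2 ratio 1.33). Between the strains, CRL1505 + LPS exceeded CRL1506 + LPS by 2.97-fold for *Parp9*, 2.90-fold for *Dtx3l* and 2.26-fold for *Parp14*.

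The remaining genes encode enzymes that add single ADP-ribose units. *Parp12*, whose product has zinc fingers that bind RNA and restrains viral growth, showed the largest ratio of the 10 genes after CRL1505. Its signal was 1328 with LPS, 4044 with CRL1505 + LPS and 1578 with CRL1506 + LPS, and its levels were 0.84, 2.97 and 1.18. This was 4.38-fold higher than LPS after CRL1505 (log2 ratio 2.13) and 1.27-fold higher after CRL1506 (log2 ratio 0.34), and the 2 lactobacilli differed by 3.46-fold. *Parp10*, which encodes a mono-ADP-ribosyltransferase found in nucleus and cytoplasm, had signals of 24650, 44558 and 35463 and levels of 5.05, 6.43 and 5.67. It was the gene with the highest ratio after CRL1506, at 1.53-fold above LPS (log2 ratio 0.62), and reached 2.60-fold after CRL1505 (log2 ratio 1.38). The strains differed by 1.70-fold for *Parp10*, under the threshold.

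*Parp11*, which encodes a small family member with a WWE domain, had levels of -0.67 with LPS, 0.57 with CRL1505 + LPS and -0.44 with CRL1506 + LPS. Its ratio to LPS was 2.37-fold after CRL1505 (log2 ratio 1.24) and 1.17-fold after CRL1506 (log2 ratio 0.23), and the strains differed by 2.02-fold, just past the threshold. *Parp8*, a little-studied member, was the dimmest of the probes used, with signals of 97.2, 132 and 50.2 and levels of -2.93, -1.97 and -3.80. It was 1.96-fold higher than LPS after CRL1505 (log2 ratio 0.97), just under the threshold, and 1.82-fold lower after CRL1506 (log2 ratio -0.86). Neither ratio to LPS was past 2-fold, whereas the difference between the strains was 3.56-fold (log2 ratio 1.83), the largest of the 10 genes with the 75th percentile shift. With normexp background correction and in the deposited log2 values it was smaller than that of *Parp12*, at 1.17 against 1.67 and at 1.20 against 1.55. The ratio of *Parp8* to LPS after CRL1506 was past 2-fold lower in 4 of the 6 other normalizations, at -1.16 to -1.02.

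**Figure D2:**
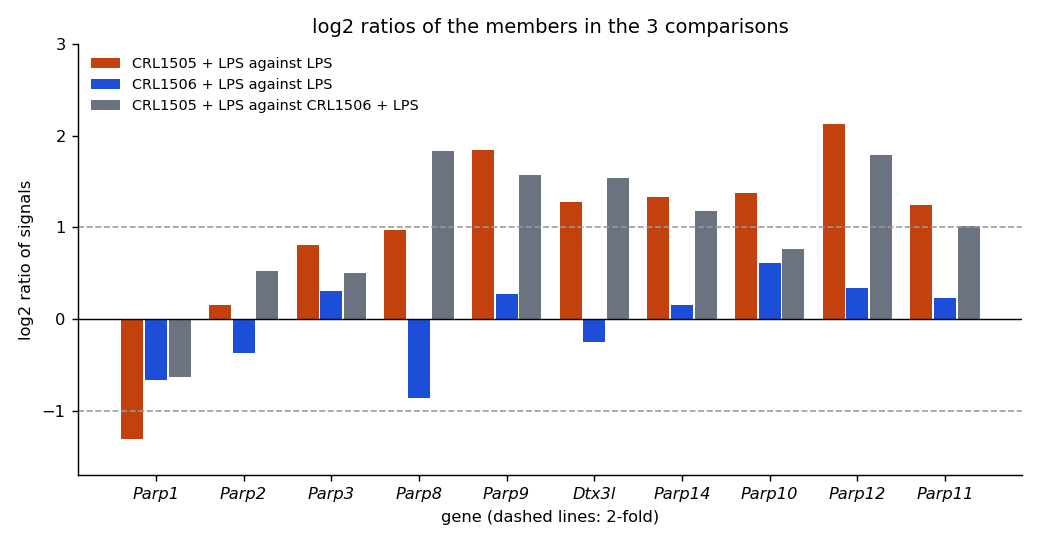
log2 ratio of signals for each gene in the 3 comparisons, with 1 array per condition, no error bars because there are no replicates, and dashed lines at 2-fold. The CRL1505 + LPS bars of *Parp9*, *Dtx3l*, *Parp14*, *Parp10*, *Parp12* and *Parp11* lie between 1.24 and 2.13, while all CRL1506 + LPS bars against LPS lie between -0.86 and 0.62.

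Other probes of the same genes gave smaller ratios in several cases. For *Parp10*, the overlapping probes gave log2 ratios of 1.38 and 1.82 after CRL1505 and of 0.62 and 0.50 after CRL1506. For *Parp14*, the probe used gave 1.33 after CRL1505, while the other, on chromosome 16 between 35866315 and 35866374 (mm9), gave 0.58. After CRL1506 the order was the other way round, with 0.15 for the probe used and 0.80 for the other. Between the strains, the *Parp14* probes thus gave opposite signs, 1.18 and -0.22. The other probe was bright as well, with signals of 3441 with LPS, 3567 with CRL1505 + LPS and 5622 with CRL1506 + LPS, so it was not at the detection limit. For *Parp12*, the other probe, listed under another transcript identifier, gave 0.16 after CRL1505 and 1.23 after CRL1506, and had signals of 112, 86.8 and 246. The strain difference of *Parp12* was 1.79 by the probe used and -1.07 by this one.

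*Dtx3l* had another probe with log2 ratios of 0.52 after CRL1505 and -0.02 after CRL1506, and *Parp11* another with 0.61 and 0.18. Of 4 *Parp9* probes, the other probes measured against LPS gave 1.09 and 0.07 after CRL1505 and 0.92 and 0.49 after CRL1506, at signals of 138 or less. The last *Parp9* probe had an outlier spot on the LPS array, whose signal was 1290 against 127 and 227 on the others, and it was left out there. The *Parp3* probes gave 0.23 to 0.87 after CRL1505 and 0.30 to 0.55 after CRL1506. The other *Parp8* probes were not well above background. After CRL1505, all measured probes of a gene had the same sign for each of the 10 genes. For *Parp1* and *Parp8*, with 1 measured probe each, this could not be otherwise. Between the strains, the probes of *Parp3*, *Parp9*, *Parp12* and *Parp14* included both signs. When probes were averaged, 2 genes, *Parp10* and *Parp12*, remained at least 2-fold higher after CRL1505, with log2 ratios of 1.60 and 1.14, and *Parp9* fell just short of the threshold.

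**Figure D3:**
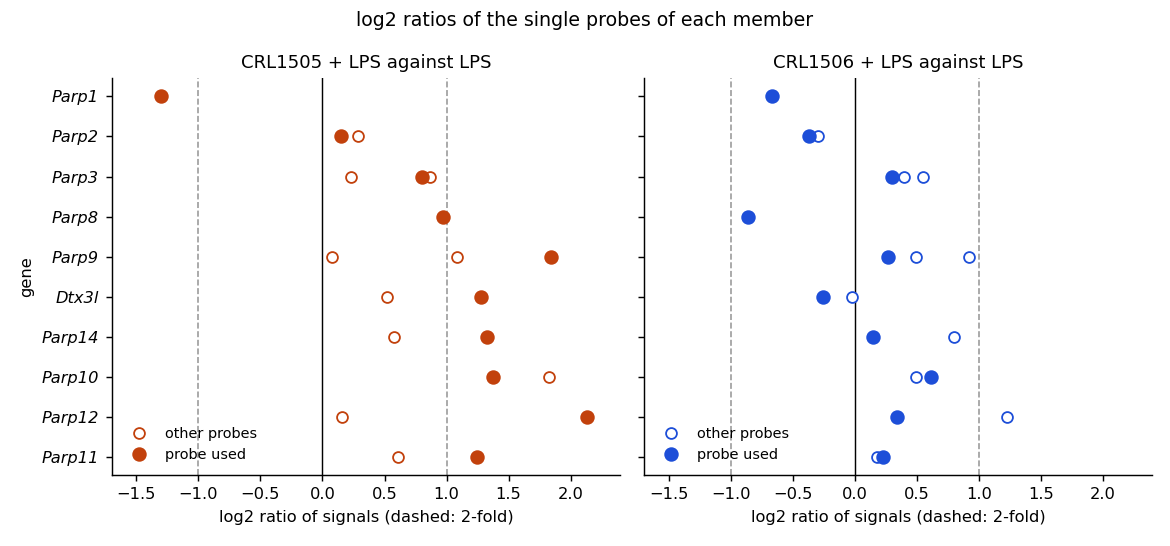
log2 ratio of every measured probe of each gene, for each strain with LPS against LPS alone; filled points are the probes used and open points the other probes, with dashed lines at 2-fold. After CRL1505 the open points of *Parp9*, *Dtx3l*, *Parp14*, *Parp12* and *Parp11* lie below the filled ones, and the *Parp10* point lies above.

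A shift of each array by another reference value moved all ratios of a comparison together. Cyclic loess did not, since after CRL1505 it raised *Parp8* from 0.97 to 1.28 and lowered *Parp10* from 1.38 to 1.26. The median log2 ratio of all genes to LPS was 0.35 for CRL1505 and -0.26 for CRL1506 with a shift by the array medians, and -0.65 and -0.25 with a shift by the spike-in probes, against 0.06 and -0.06 with the 75th percentile. Under the 6 other normalizations, the log2 ratio of *Parp12* after CRL1505 was 1.42 to 2.43 and that of *Parp9* was 1.13 to 2.14, both past 2-fold in each. *Parp10*, *Parp11*, *Parp14* and *Dtx3l* were past 2-fold in 5 of the 6, and with the spike-in probes they were 0.67, 0.54, 0.62 and 0.57. Relative to the median of all genes, the ratios of these 6 genes lay between 1.04 and 2.07 in the 75th percentile shift and the 6 other normalizations. *Parp1* after CRL1505 was between -2.01 and -1.01, and thus past 2-fold lower in all. *Parp2* after CRL1505 changed sign with the spike-in probes, to -0.56, and *Parp14* after CRL1506 with the median shift, to -0.05. Between the strains, *Parp8*, *Parp9*, *Parp12* and *Dtx3l* were past 2-fold in all 6 other normalizations, but *Parp11* in 3 and *Parp14* in 2, and *Parp3* changed sign with the spike-in probes, to -0.02.

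The rest of the family was compared from a list. Of 7 other PARP genes, 2 were at least 2-fold higher than LPS after CRL1505, and the median log2 ratio of the list was 0.50. These were *Tiparp*, a mono-ADP-ribosyltransferase gene of the aryl hydrocarbon receptor pathway, at 3.58-fold, and *Parp4*, the gene of the vault-associated member, at 3.04-fold. Both lay under 2-fold after CRL1506, at 1.48-fold and 1.13-fold. With the spike-in probes the log2 ratio of *Parp4* after CRL1505 was 0.90, under the threshold, and the list median was -0.20. None of the 7 genes, *Parp6*, *Parp16*, *Tnks*, *Tnks2* and *Zc3hav1* included, was at least 2-fold lower with either strain, except 1 after CRL1505 with the spike-in probes.

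Among genes that remove ADP-ribose, such as *Parg*, which encodes the enzyme that degrades its chains, 0 of 7 passed 2-fold against LPS with either strain, and 2 of 7 were above 0 with each. Their median log2 ratio was -0.53 after CRL1505 and -0.09 after CRL1506. The ratio of *Adprhl1* to LPS after CRL1505, -0.89, was a bound, so it may lie past 2-fold lower. Between the strains, *Adprhl1* was lower with CRL1505 by a log2 ratio of -1.27, which bounds the difference from below because the probe was not well above background on that array. The partners of PARP1 in strand-break repair, such as *Xrcc1* and *Lig3*, did not pass 2-fold in any of the 3 comparisons (0 of 9), with log2 ratios to LPS of -0.55 to 0.46 after CRL1505 and -0.27 to 0.26 after CRL1506. Of 6 compared genes of NAD supply, *Nampt*, which encodes the rate-limiting enzyme of NAD salvage, was 2.62-fold higher after CRL1505 and 1.27-fold higher after CRL1506, and the others lay under 2-fold. With the spike-in probes *Nampt* lay at 0.68 on the log2 scale after CRL1505, and 4 of the 7 ADP-ribose removal genes and 3 of the 9 repair partners were at least 2-fold lower, against 29.3% of all genes compared under that shift.

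Interferon pathway genes were read beside the PARP genes because several of the latter belong to the interferon-stimulated group. After CRL1505, 5 of 14 interferon signalling genes were at least 2-fold higher than LPS. Among them, *Ifnb1*, the interferon beta gene, was 11.0-fold higher, the transcription factor gene *Irf7* 3.73-fold, *Stat2* 2.96-fold and the kinase gene *Jak2* 2.88-fold. After CRL1506, 2 of the 14 passed, *Ifnb1* at 4.97-fold and the receptor gene *Ifnar1* at 2.59-fold. *Stat2* and *Irf7* were 1.44-fold and 1.83-fold above LPS after CRL1506.

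Of 22 other interferon-stimulated genes, 21 were at least 2-fold higher after CRL1505, with a median log2 ratio of 1.98, and 6 after CRL1506, with a median of 0.67. The largest after CRL1505 were *Ifit2* at 2.82, *Ifit3* at 2.71 and *Cmpk2* at 2.57 on the log2 scale. *Cxcl10*, at 0.47, was the gene that did not pass. The 6 after CRL1506 were *Oas2*, *Ifit3*, *Oasl2*, *Cmpk2*, *Rsad2* and *Mx1*, with log2 ratios of 1.08 to 1.51. The 10 PARP family genes had medians of 1.26 and 0.19 beside these. No gene of either interferon list was at least 2-fold lower with either strain under the 75th percentile shift. Between the strains, 14 of the 22 genes and 3 of the 14 signalling genes were at least 2-fold higher with CRL1505. With the spike-in probes, 15 of the 22 genes and 2 of the 14 were at least 2-fold higher than LPS after CRL1505, against 3.98% of all genes. Between the strains 2 of the 22 and 0 of the 14 were, against 4.23%.

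**Figure D4:**
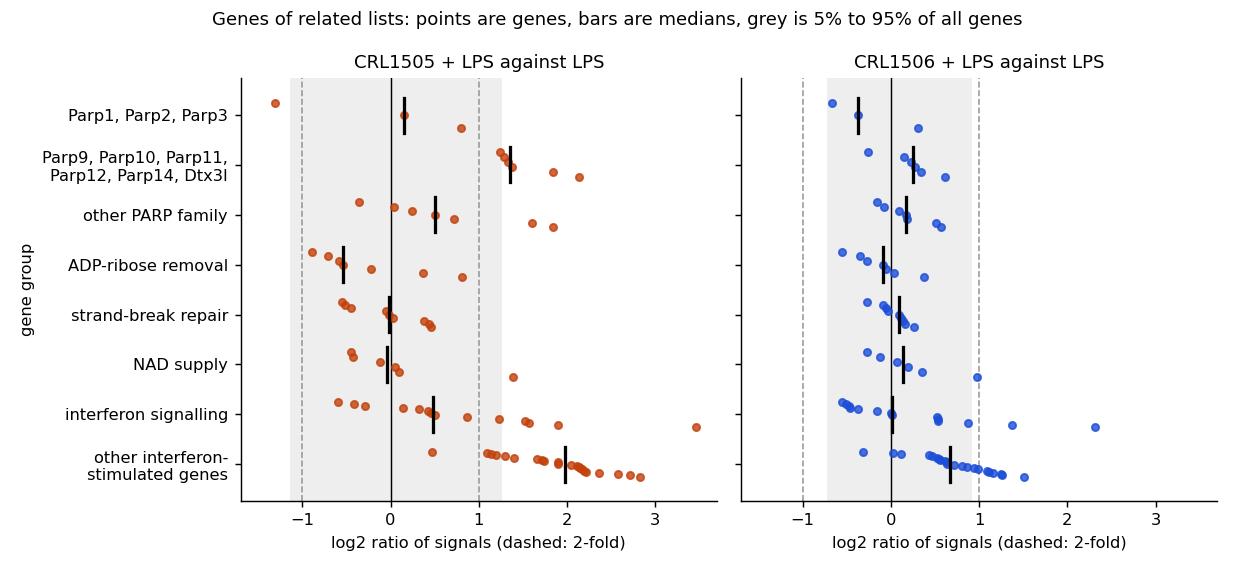
log2 ratio to LPS of every compared gene of 8 gene groups, for each strain; points are genes, black bars are group medians, dashed lines mark 2-fold and the grey band holds 5% to 95% of all genes measured on both arrays. *Parp9*, *Parp10*, *Parp11*, *Parp12*, *Parp14* and *Dtx3l*, drawn as a group with their ratios known, are the 6 genes past 2-fold after CRL1505, so their median of 1.35 there is no separate result; the other interferon-stimulated genes have medians of 1.98 after CRL1505 and 0.67 after CRL1506.

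The genes with the most similar values were sought for the chromosome 16 genes by the distance between pairs of log2 ratios to LPS, 1 for each strain, over 13122 genes well above background on the 3 arrays. The nearest to *Parp9* were *Aff1*, *Aftph* and *Sprtn*, and 58 genes lay within 0.25 of it. Nearest to *Dtx3l* were *LOC105245882*, *Ppp1r3b* and *Sertad3*, with 146 genes within 0.25, and *Tmem171* and *Ifna14* were among the nearest to *Parp14*, with 141. Such likeness rests on a pair of ratios that share the LPS array.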

How the data were processed

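RNA of RAW macrophages was hybridised in 1 colour (Cy3) to SurePrint G3 Mouse GE microarrays. The authors deposited for each of 3 arrays the spot intensity from Feature Extraction (version 12.0.3.1 in the files), background-subtracted and not normalized between arrays, and a table of log2 values normalized between arrays, used here as an alternative. Outlier spots were left out, repeated spots averaged, and log2 intensities shifted by the 75th percentile of gene spots. A gene was represented by its brightest probe without an outlier spot. Ratios with 1 side not well above background were lower bounds, set against the lowest signal well above background or the probe's own, whichever was higher. Ratios with both sides not well above background were left out. The threshold was 2-fold, as in the methods. The t-test they name was left out for want of replicates. Precision is limited by the number of arrays. The members, gene lists and alternatives were chosen with earlier results of these data known. All 10 members are named; genes of the lists are named if past 2-fold (the 3 largest where over 6 pass); the 3 nearest genes are given for *Parp9*, *Dtx3l* and *Parp14*. A few genes that this rule names are not reported here. Other named genes, such as examples of a list, were chosen after their values were seen. The procedure was tested on simulated data. There all probes of a gene were changed alike, so the choice between unlike probes was not tested. Python 3.11.15 with pandas 2.3.3, NumPy 2.4.6 and matplotlib 3.10.9, and R 4.3.3 with limma 3.58.1, were used.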

Additional observations from a re-analysis of the deposited data

How the results depend on the processing

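With 1 array per condition, no paired analysis was possible because no group has a replicate, and no array could be left out. The 30 log2 ratios of the 10 genes were recomputed under the alternatives that keep the threshold, giving 330 values. Of these, 267 moved by no more than the spread between probes, 63 moved by more, and no ratio past 2-fold changed sign. The alternatives that only treated dim, outlier or uneven spots otherwise could not move any ratio, because the probes used had no such spots. Their values are therefore among the 267 by construction. Averaging the probes of a gene left 2 genes at least 2-fold higher after CRL1505 than with LPS and 3 between the strains, in place of 6 and 6, against 9.66% and 7.85% of all genes under that rule. The median shift gave 8 and 8, against 16.0% and 23.6% of all genes. With the spike-in probes, 2 genes were higher after CRL1505, against 3.98% of all genes, and 1 gene each was lower after CRL1506 (*Parp8*, against 5.22%) and between the strains (*Parp1*, against 20.6%). *Parp8* was also the 1 gene lower after CRL1506 with the median shift, quantile normalization and cyclic loess, against 5.37%, 4.87% and 4.21% of all genes. At 1.5-fold, 1 gene was higher and 2 were lower after CRL1506, against 11.7% and 9.23% of all genes. Between the strains, 1 was lower at that threshold, against 17.3%. At 4-fold, 1 gene was higher and 0 were lower after CRL1505, against 2.99% and 1.54% of all genes. Between the strains, 0 were higher at 4-fold, against 2.46%. The cause of these shifts was not tested, apart from the thresholds, which change the counts by construction. Among the genes of the whole array that passed 2-fold in either direction, 54.1% were higher after CRL1505, 61.6% after CRL1506 and 54.7% between the strains. The same share was, with the median shift, 76.1%, 43.4% and 89.0%, with the spike-in probes 12.0%, 44.6% and 17.0%, with quantile normalization 56.6%, 51.4% and 63.5%, and with cyclic loess 60.9%, 55.0% and 66.0%. Low signal limits *Parp8*, whose probe was the dimmest.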
